A study of Mus musculus with 8 samples.

Results

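The LIF receptor and STAT3 response genes are 10 genes named by symbol: the cytokine Lif, the receptor chains Lifr, Il6st and Osmr, the transcription factor Stat3, and the response genes Socs3, Cebpd, Icam1, Junb and Pim1. All non-control probes whose accessions matched these symbols in RefSeq were taken. They came to 15 probes of 9 genes, out of 41174 probes and 18842 genes with a symbol. No probe matched Lif, which is not analysed here. The rule that picks the probes uses no measured values, but the genes themselves were chosen with earlier results of these data known.

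The cells were N31, a line of neural progenitor cells derived from mouse embryonic stem cells. They expressed W20 or the fluorescent protein EGFP, which served as the control, and the series' title ties its bacterial proteins to faster reprogramming. The 4 groups were W20 cells at 72 h, EGFP cells at 72 h, W20 cells sampled as neural progenitors (NPC) and EGFP cells sampled as NPC, with 2 Agilent one-colour arrays each. All cells were grown in NPC medium with EGF and bFGF, each at 10 ng/ml. The 72 h cells had Dox at 40 ng/ml throughout: 48 h in NPC medium, then 24 h in GMEM with 10% KSR and LIF at 1000 U/ml. What Dox switches on in these cells is not given in the sources used here. Whether the 2 arrays of a group were separate cultures is not given in the labels either, and the p-values then rest on a spread that may be technical.

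LIF, Dox, the medium change and the time in culture all differed between 72 h and NPC. The 4 NPC arrays lay on 1 slide and the 4 arrays of 72 h on another, so slide and stage cannot be told apart. On both slides the EGFP arrays took positions 1 and 2 and the W20 arrays positions 3 and 4.

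As background, LIF binds its receptor chain Lifr, which pairs with gp130, the product of Il6st. The paired chains activate JAK kinases, which phosphorylate Stat3. Phosphorylated Stat3 dimerises, enters the nucleus and binds DNA, most often at the palindrome TTCNNNGAA, where N is any base. Socs3 is a target that inhibits the same receptors. In mouse embryonic stem cells LIF sustains self-renewal through Stat3, and in neural progenitors the pathway favours astrocytes. Stat3 is switched on by phosphorylation, which arrays do not measure.

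The letters TTCNNNGAA, which read the same on both strands, were searched in RefSeq promoters of build GRCm38.p6, from 250 bases before to 50 bases after each start. They stood in 2726 of 32851 promoters (8.3%). Of the 10 genes, 9 had a promoter entry, with 11 promoters in all. The letters stood in 2 of the 11, those of Socs3 and Icam1. The windows of Lifr and of Socs3 lay inside the spans of these genes, so the 5′ ends of these spans were not searched. The 2 promoters are shown, 5′ to 3′, because they hold the only matches among the members; capitals mark the match. The Socs3 promoter is chr11:117969317-117969616 on the minus strand, with TTCTTAGAA from -154 to -146 relative to the start. The Icam1 promoter is chr9:21015690-21015989 on the plus strand, with TTCCCGGAA from -42 to -34. A match is a description of the letters and not evidence of binding.
Socs3: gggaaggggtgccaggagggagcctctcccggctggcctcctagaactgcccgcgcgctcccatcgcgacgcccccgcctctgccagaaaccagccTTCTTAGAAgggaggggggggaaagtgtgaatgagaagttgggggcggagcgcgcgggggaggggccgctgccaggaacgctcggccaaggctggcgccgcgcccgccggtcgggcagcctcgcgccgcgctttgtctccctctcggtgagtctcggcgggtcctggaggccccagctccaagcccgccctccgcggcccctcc
Icam1: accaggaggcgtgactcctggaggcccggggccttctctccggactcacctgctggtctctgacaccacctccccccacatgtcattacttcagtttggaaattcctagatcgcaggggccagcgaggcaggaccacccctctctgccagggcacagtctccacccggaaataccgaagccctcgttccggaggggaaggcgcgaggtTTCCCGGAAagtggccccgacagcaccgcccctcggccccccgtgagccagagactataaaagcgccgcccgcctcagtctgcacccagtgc

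A level is the log2 processed signal of a gene's brightest probe minus the 75th percentile of its array, so 0 is the array's 75th percentile. Levels of different genes come from different probes and were not compared. The 75th percentile was 829 and 829 intensity units on the W20 arrays at 72 h, against 940 and 903 on the EGFP arrays, and 853 to 885 on the NPC arrays. Between 57.0% and 62.4% of spots were well above background and none was saturated. Differences are on the log2 scale and carry ± the standard error (SE) from 1 limma model of the 4 group means. A gene was called where its p, adjusted by Benjamini-Hochberg over 13617 genes, was under 0.05. The median SE was 0.049, so small differences passed. All 9 genes passed the filter, which kept a probe detected above background by both arrays of 1 group or more. Of these, 8 were above background on all 8 arrays, while Icam1 passed through its EGFP groups alone.

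The labelled cell type was checked against markers. Of 10 neural progenitor markers, 7 were well above background on both arrays of each NPC group, among them Nes, Sox2, Pax6 and Vim. Olig2 was above background on no array, Hes5 on no NPC array, and Fabp7 on no W20 NPC array and 1 EGFP NPC array. The summed level of 7 mesenchymal markers, on a linear scale in units of the array's 75th percentile, was 98.6 to 101 in W20 NPC, against 147 to 167 in EGFP NPC. At 72 h it was 88.9 to 91.7 in W20 cells, against 134 to 137 in EGFP cells. Col1a2 makes up most of this sum, at 6.53 and 6.49 in W20 NPC, against 6.95 and 7.13 in EGFP NPC. Col1a1, Col3a1, Postn, Thy1 and Dcn were likewise lower on both W20 arrays at each stage. Lum was above background on no array at 72 h. The sum of 6 astrocyte markers was 11.3 to 11.4 in W20 NPC, against 16.0 to 16.2 in EGFP NPC, and at 72 h it was 14.6 to 15.05 in W20 cells, against 11.9 to 12.3 in EGFP cells. The level of Aldoc makes up most of that sum: it was 3.70 and 3.65 in W20 cells at 72 h, against 3.25 and 3.31 in EGFP cells. At 72 h Gja1 was 0.25 and 0.20 in W20 cells, against 0.64 and 0.58 in EGFP cells. S100b was likewise lower on both W20 arrays at 72 h, and Gfap and Aqp4 were above background on no array there. In NPC Aldoc and Gja1 were lower on both W20 arrays, and Aldh1l1 differed little. S100b went the other way, at -2.14 and -2.17 in W20 NPC, against -2.34 and -2.22 in EGFP NPC. The sum of 6 neuron markers was 6.57 to 6.98 in W20 cells and 5.01 to 5.31 in EGFP cells at 72 h, and 1.34 to 1.35 in W20 NPC, against 1.68 to 1.77 in EGFP NPC. In NPC the lower sum came from Map2, at -1.16 and -1.20 in W20 NPC, against -0.30 and -0.11 in EGFP NPC. Tubb3 went the other way, at -1.18 and -1.11 in W20 NPC, against -1.39 and -1.37 in EGFP NPC, and Stmn2 overlapped. Immune markers were at background: of 5 with a probe, none was above background on both arrays of any group, and Ptprc, Aif1, Itgam and Cx3cr1 were on no array. The mesenchymal sum was thus lower with W20 at both stages, and the neuron sum, like Aldoc, was lower in W20 NPC and higher in W20 cells at 72 h. Their part in the results below was not tested. In bulk RNA, fewer cells of a type and less RNA per cell cannot be told apart.

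In NPC, W20 cells had less of all 9 genes than EGFP cells, from Cebpd and Icam1, the most lowered, to Junb. Of all genes tested, 23.6% were called lower there. Icam1 was below background in W20 NPC and passed the filter through its EGFP groups alone. The NPC calls of Lifr and Junb ended when arrays were scaled on their median or on spike-in probes. At 72 h the genes no longer moved together. Pim1, Socs3 and Stat3 were called higher in W20 cells, and Il6st, Junb and Cebpd lower. The probes of Lifr did not share a direction. The calls of Stat3 and Cebpd at 72 h ended under 13 and 12 of 17 other settings. Pim1 alone kept its call when arrays were scaled on spike-in probes. Over the 72 h, Lifr, Pim1, Cebpd, Stat3 and Socs3 rose in both kinds of cells, while Osmr and Junb fell in both. The plot of levels by array shows each group.

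**Figure D1:**
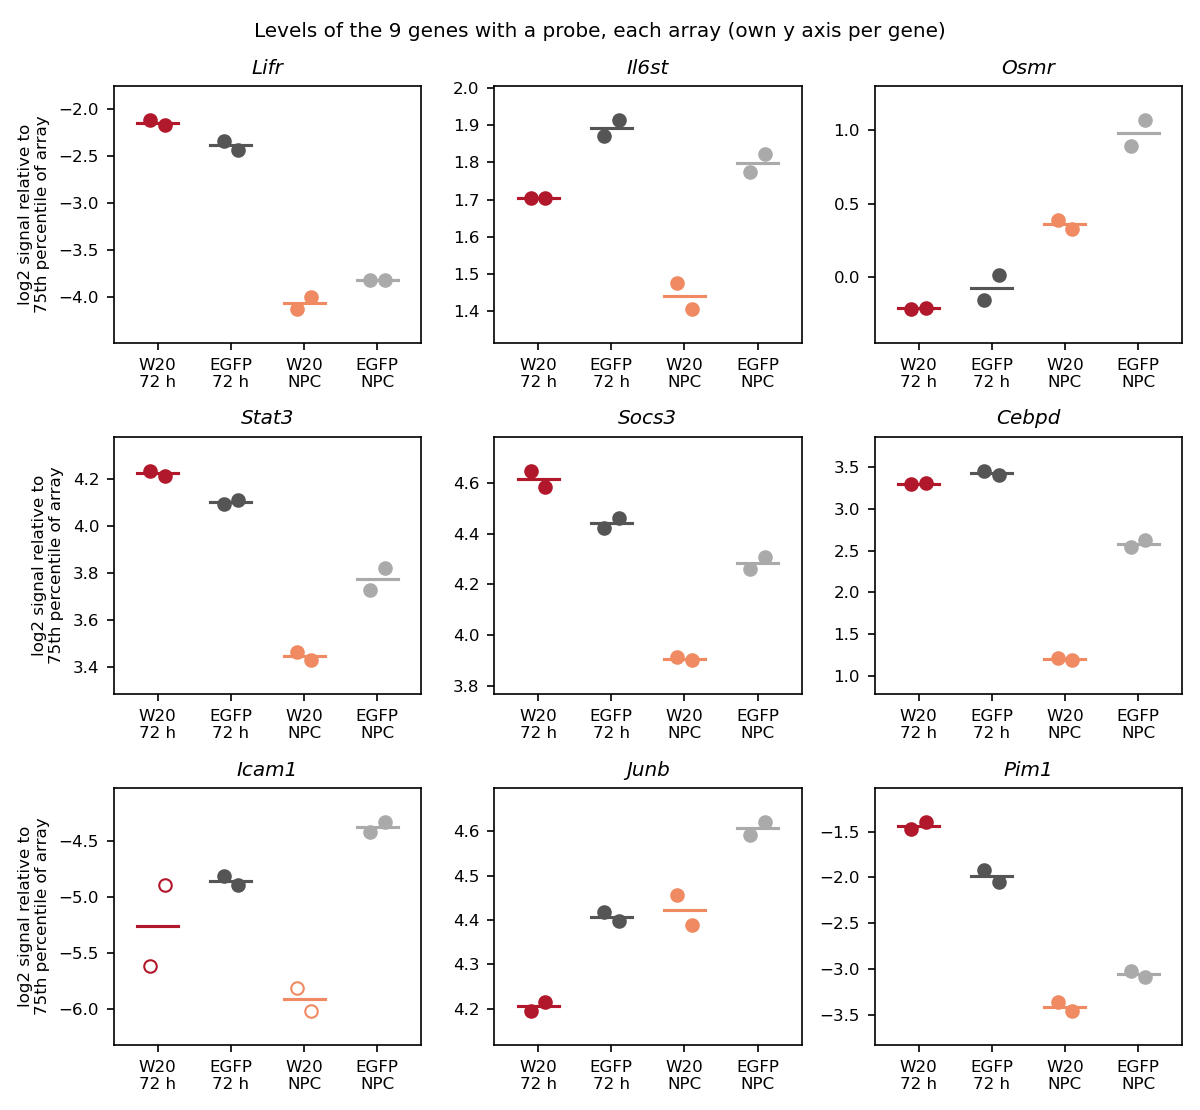
Level of each gene's brightest probe on every array (vertical axis, log2 signal relative to the array's 75th percentile), with 1 panel per gene and the 4 groups side by side; points are arrays, lines are group means, and open symbols mark a group in which no array was well above background. Lifr, Pim1 and Cebpd stand clearly higher at 72 h than in NPC, and W20 NPC has the lowest values of Lifr, Il6st, Stat3, Socs3, Cebpd and Pim1.

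Lifr, the chain that binds LIF, rose over the 72 h in both kinds of cells. Its level was -2.11 and -2.17 in W20 cells at 72 h, -2.33 and -2.43 in EGFP cells at 72 h, -4.13 and -4.00 in W20 NPC, and -3.82 and -3.82 in EGFP NPC. The 4 arrays of 72 h were all above the 4 NPC arrays, and no 2 groups overlapped. Lifr rose by 1.92 ± 0.056 in W20 cells (3.80-fold, adjusted p = 1.43e-06) and by 1.44 ± 0.056 in EGFP cells (2.71-fold, adjusted p = 6.47e-06). In NPC the W20 minus EGFP difference was -0.24 ± 0.056 (1.19-fold lower, adjusted p = 0.0125), a call that ended under 6 of 18 other settings. At 72 h the brightest probe was 0.24 ± 0.056 higher with W20 (1.18-fold, adjusted p = 0.0144).

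Lifr is the gene with most probes, 5 in all, and they did not share a direction at 72 h. In the limma fit over all 25725 probes tested, with p-values adjusted over those probes, all 5 were higher at 72 h than in NPC, called for 5 in W20 cells and for 4 in EGFP cells, where 69.7% and 63.4% of all probes were called in those cells. Beside the brightest, 3 probes gave 2.50-fold, 1.81-fold and at least 1.72-fold over the 72 h in W20 cells, and the dimmest, below background on all W20 arrays, has no fold. In EGFP cells the other 4 lay between 1.27-fold, which was not called (adjusted p = 0.398), and 1.60-fold. All 5 were lower in W20 than in EGFP NPC, and 4 were called, where 45.8% of all probes were. The exception, A_51_P113182, differed by -0.19 (adjusted p = 0.0522). Of the 4 called, the brightest and A_52_P297113 were above background on all NPC arrays. The others, A_52_P438170 and A_52_P192699, were above background on no W20 NPC array. A_52_P192699 passed the filter through EGFP cells at 72 h alone. At 72 h only the brightest was called in W20 against EGFP cells, where 42.4% of all probes were, and the other differences were 0.18, -0.01, -0.09 and -0.28. No direction is therefore given for Lifr as a gene between W20 and EGFP cells at 72 h. The plot of probe differences shows all 3 genes with several probes.

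**Figure D2:**
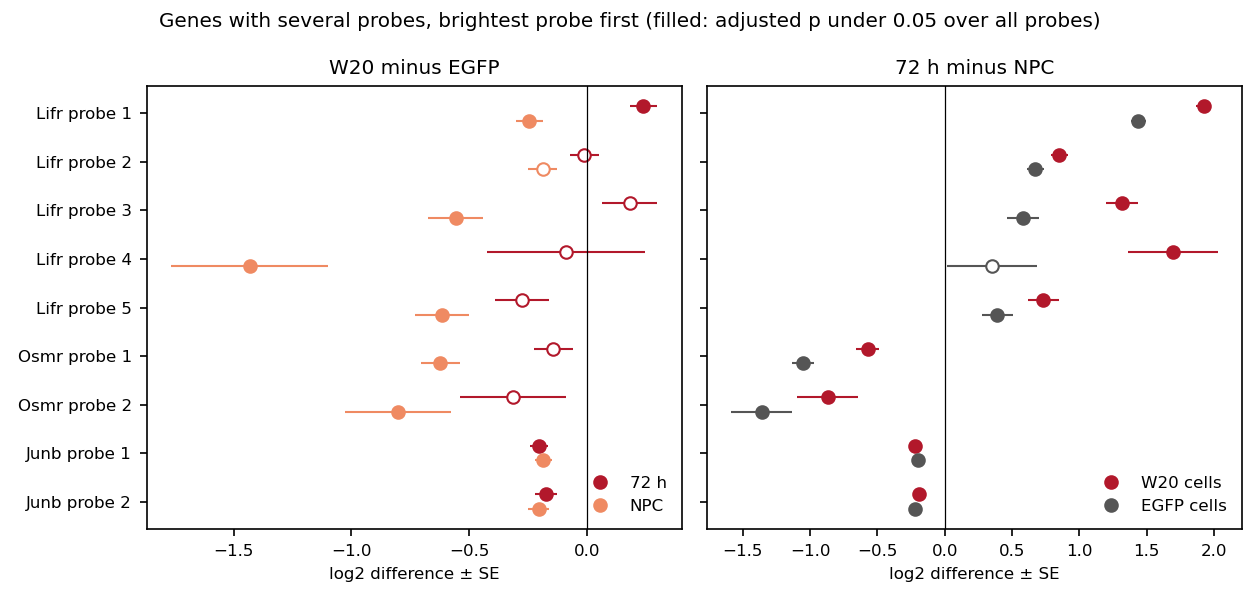
Log2 differences ± SE of every probe of the 3 genes with several probes (Lifr, Osmr and Junb), W20 minus EGFP and 72 h minus NPC; open symbols did not pass the threshold. The Lifr probes spread on both sides of 0 for W20 minus EGFP at 72 h, and the probes of Osmr and of Junb keep 1 side.

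Il6st, which codes for the shared signalling chain gp130, varied least with stage of the 3 receptor chains. Its level was 1.71 and 1.70 in W20 cells at 72 h, 1.87 and 1.91 in EGFP cells at 72 h, 1.48 and 1.41 in W20 NPC, and 1.77 and 1.82 in EGFP NPC. The EGFP arrays were above the W20 arrays at both stages. The W20 minus EGFP difference was -0.36 ± 0.038 in NPC (1.28-fold lower, adjusted p = 7.89e-04) and -0.19 ± 0.038 at 72 h (1.14-fold lower, adjusted p = 0.00904). The W20 minus EGFP call at 72 h ended under 2 of 17 other settings. Il6st rose over the 72 h in W20 cells, by 0.26 ± 0.038 (1.20-fold, adjusted p = 0.00116), a call that ended under 1 of 16 other settings. In EGFP cells the difference of 0.09 ± 0.038 did not pass (adjusted p = 0.0710).

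Osmr, the chain that pairs with gp130 to bind oncostatin M, ran opposite to Lifr over time. Its level was -0.22 and -0.21 in W20 cells at 72 h, -0.16 and 0.02 in EGFP cells at 72 h, 0.39 and 0.33 in W20 NPC, and 0.89 and 1.07 in EGFP NPC. The groups did not overlap, and EGFP NPC was highest. Between NPC and 72 h Osmr fell by 0.57 ± 0.081 in W20 cells (1.49-fold, adjusted p = 0.00103) and fell by 1.05 ± 0.081 in EGFP cells (2.07-fold, adjusted p = 8.93e-05). In NPC the W20 minus EGFP difference was -0.62 ± 0.081 (1.54-fold lower, adjusted p = 0.00158), and the difference at 72 h, -0.14 ± 0.081, did not pass (adjusted p = 0.188). Its second, dimmer probe had the same signs, with -0.80 between W20 and EGFP NPC and -1.36 over the 72 h in EGFP cells, both called. In W20 cells at 72 h it was above background on no array, and its called fall there was at least 1.39-fold.

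Stat3, the factor that carries the signal to the nucleus, rose over the 72 h in both kinds of cells. Its level was 4.23 and 4.21 in W20 cells at 72 h, 4.09 and 4.11 in EGFP cells at 72 h, 3.47 and 3.43 in W20 NPC, and 3.73 and 3.82 in EGFP NPC. The groups fell in the same order as for Lifr: W20 cells at 72 h, EGFP cells at 72 h, EGFP NPC and W20 NPC, with no overlap. Stat3 rose over the 72 h by 0.78 ± 0.041 in W20 cells (1.71-fold, adjusted p = 1.34e-05) and by 0.33 ± 0.041 in EGFP cells (1.25-fold, adjusted p = 6.79e-04). In NPC the W20 minus EGFP difference was -0.33 ± 0.041 (1.25-fold lower, adjusted p = 0.00133). At 72 h it was 0.12 ± 0.041 higher with W20 (1.09-fold, adjusted p = 0.0481), a call that ended under 13 of 17 other settings. The 72 h signals overlapped before scaling, at 15584 and 15374 intensity units in W20 cells, against 16048 and 15577 in EGFP cells.

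Socs3, the feedback inhibitor whose promoter is printed above, followed the same order of groups. Its level was 4.65 and 4.58 in W20 cells at 72 h, 4.42 and 4.46 in EGFP cells at 72 h, 3.91 and 3.90 in W20 NPC, and 4.26 and 4.31 in EGFP NPC. The groups did not overlap, and W20 cells held both the highest and the lowest arrays. Socs3 rose over the 72 h by 0.71 ± 0.037 in W20 cells (1.63-fold, adjusted p = 1.35e-05) and by 0.16 ± 0.037 in EGFP cells (1.11-fold, adjusted p = 0.0104). The call in EGFP cells ended under 4 of 16 other settings. Socs3 was -0.38 ± 0.037 in W20 against EGFP NPC (1.30-fold lower, adjusted p = 6.03e-04). At 72 h it was 0.17 ± 0.037 in W20 against EGFP cells (1.13-fold higher, adjusted p = 0.0109), a call that ended under 2 of 17 other settings. Before scaling, the 72 h signals overlapped, at 20750 and 19852 intensity units in W20 cells, against 20127 and 19908 in EGFP cells.

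Cebpd, a transcription factor of the C/EBP family, showed the widest range of the 8 genes above background on every array. Its level was 3.29 and 3.31 in W20 cells at 72 h, 3.45 and 3.41 in EGFP cells at 72 h, 1.21 and 1.19 in W20 NPC, and 2.54 and 2.63 in EGFP NPC. W20 NPC stood well below the other groups, and the 72 h groups lay close together. The difference between W20 and EGFP NPC was -1.38 ± 0.040 (2.60-fold lower, adjusted p = 5.41e-05), rank 218 among the genes with a negative difference. Over the 72 h Cebpd rose by 2.10 ± 0.040 in W20 cells (4.28-fold, adjusted p = 3.88e-07) and by 0.85 ± 0.040 in EGFP cells (1.80-fold, adjusted p = 1.29e-05). At 72 h it was -0.13 ± 0.040 in W20 against EGFP cells (1.09-fold lower, adjusted p = 0.0361), a call that ended under 12 of 17 other settings.

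Icam1, a cell adhesion molecule of the immunoglobulin family, was dim, and its probe was well above background on no W20 array. Its level was -5.62 and -4.89 in W20 cells at 72 h, -4.81 and -4.89 in EGFP cells at 72 h, -5.81 and -6.02 in W20 NPC, and -4.42 and -4.33 in EGFP NPC. The 72 h groups overlapped, and the NPC groups did not. Where a probe was detected in 1 group only, the fold is a bound. The dim group is then set, on each array, to the probe's own signal or to the lowest signal that counted as detected there, whichever is greater. On that basis Icam1 was at least 2.09-fold lower in W20 than in EGFP NPC (adjusted p = 0.00242). The differences between W20 and EGFP cells at 72 h (-0.40 ± 0.226, adjusted p = 0.183) and over the 72 h in EGFP cells (-0.48 ± 0.226, adjusted p = 0.106) did not pass. In W20 cells the change over the 72 h passed (adjusted p = 0.0380), but with all 4 arrays below background it has no fold. That call ended under 9 of 15 other settings.

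Junb, an AP-1 subunit and immediate early gene, was lower with W20 and lower at 72 h. Its level was 4.19 and 4.22 in W20 cells at 72 h, 4.42 and 4.40 in EGFP cells at 72 h, 4.46 and 4.39 in W20 NPC, and 4.59 and 4.62 in EGFP NPC. W20 NPC and EGFP cells at 72 h overlapped, and the other groups were apart. W20 against EGFP gave -0.18 ± 0.035 in NPC (adjusted p = 0.00622) and -0.20 ± 0.035 at 72 h (adjusted p = 0.0048). Junb fell by 0.22 over the 72 h in W20 cells (adjusted p = 0.00179) and fell by 0.20 in EGFP cells (adjusted p = 0.00297). Its second probe had the same signs in all 4 comparisons and was called in each. The 4 calls of the brightest probe ended when arrays were scaled on spike-in probes. Scaling on each array's median also ended those in NPC and over the 72 h in EGFP cells.

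Pim1, a serine/threonine kinase that promotes survival, rose over the 72 h and showed the largest W20 minus EGFP difference of the 9 genes at 72 h. Its level was -1.47 and -1.40 in W20 cells at 72 h, -1.92 and -2.05 in EGFP cells at 72 h, -3.36 and -3.46 in W20 NPC, and -3.02 and -3.08 in EGFP NPC. The 4 groups did not overlap, and the W20 arrays were above the EGFP arrays at 72 h and below them in NPC. Pim1 rose over the 72 h by 1.97 ± 0.062 in W20 cells (3.93-fold, adjusted p = 1.95e-06) and by 1.07 ± 0.062 in EGFP cells (2.09-fold, adjusted p = 2.99e-05). At 72 h it was 0.55 ± 0.062 in W20 against EGFP cells (1.46-fold higher, adjusted p = 0.00111), and in NPC -0.36 ± 0.062 (1.28-fold lower, adjusted p = 0.00455). Of the calls at 72 h, this was the one that held under each of 17 other settings.

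Since earlier results were known when the genes were chosen, their counts beside those of all genes are a description. Set against all genes, W20 NPC had 9 of 9 genes called lower and 0 higher. Of all genes tested, 55.5% were called in either direction: 23.6% lower and 31.8% higher. The median difference of the 9 genes was -0.36, against 0.04 for all genes. Without Icam1, which had to differ to pass the filter, it was 8 of 8. Scaling on each array's median or on spike-in probes left 7 of the 9 calls, without Lifr and Junb. At 72 h, 4 were called higher and 3 lower, where 52.7% of all genes were called, made up of 28.4% higher and 24.4% lower. Lifr counts among the 4 by its brightest probe alone, and without it 3 were higher. The median was -0.13, against 0.03 for all genes. The 7 calls at 72 h came to 1, Pim1, when arrays were scaled on spike-in probes, to 4 with normexp background correction, and to 3 without EGFP replicate 2. They came to 4 without W20 replicate 1 and to 4 without EGFP replicate 1.

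From NPC to 72 h in W20 cells, 7 genes were called higher and 2 lower, where 74.6% of all genes were called, made up of 37.5% higher and 37.2% lower. Without Icam1 it was 6 higher and 2 lower of 8. The median was 0.71, against 0.01 for all genes. In EGFP cells 5 were called higher and 2 lower, where 69.9% of all genes were called, made up of 36.1% higher and 33.8% lower. The median was 0.16, against 0.01. With so many of all genes called, the size of a change says more than the call. Of the genes with 1 probe that rose in both kinds of cells, Cebpd and Pim1 changed by 1.80-fold or more, and Stat3 and Socs3 by 1.71-fold or less.

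**Figure D3:**
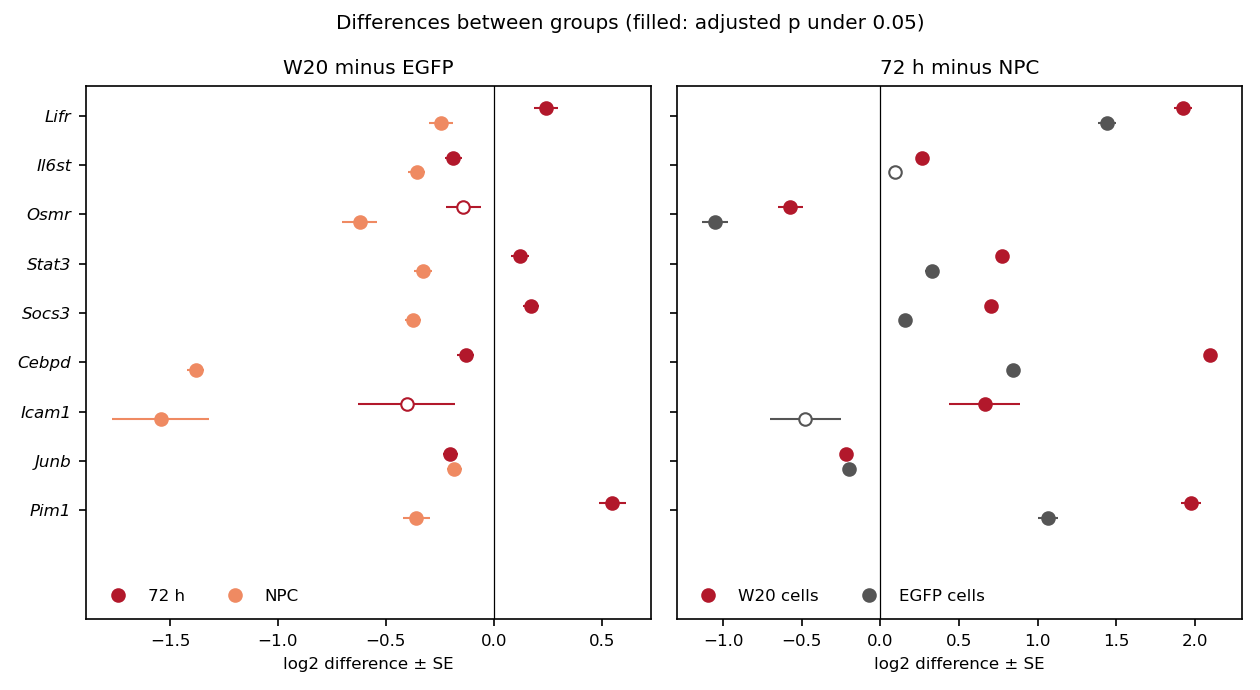
Log2 differences ± SE of the 9 genes (rows), W20 minus EGFP on the left and 72 h minus NPC on the right; filled points passed the threshold. All 9 NPC points on the left lie below 0, and the W20 cells' changes over the 72 h lie to the right of the EGFP cells' changes for each gene but Junb.

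The effect of W20 was then compared between stages, as the W20 minus EGFP difference at 72 h minus that in NPC. It was positive and called for 7 of 9 genes and negative for 0 called genes, where 30.9% of all genes were called, made up of 13.9% positive and 16.9% negative. Without Icam1 it was 6 of 8. Cebpd had 1.25 ± 0.056 (adjusted p = 2.40e-04). Icam1 passed (adjusted p = 0.0438), but it was below background on all 4 W20 arrays and no size is given. Pim1 had 0.91 ± 0.088 (adjusted p = 0.00139) and Socs3 0.55 ± 0.052 (adjusted p = 0.00131). Lifr and Osmr had 0.48 each and Stat3 0.45 (adjusted p = 0.00765, 0.0266 and 0.00337). The values of Lifr and Osmr are those of their brightest probes. In the limma fit over all probes, the other Lifr probes were positive too, but not all were called (adjusted p = 0.205, 0.199 and 0.102). The second Osmr probe was positive and not called (adjusted p = 0.329). Junb, at -0.02 ± 0.049 (adjusted p = 0.804), and Il6st, at 0.17 ± 0.054 (adjusted p = 0.0628), did not pass. The same number is also the rise over the 72 h in W20 cells minus that in EGFP cells, since the 5 comparisons share arrays. The call for Icam1 ended under 8 of 15 and that for Osmr under 9 of 16 other settings, and scaling on spike-in probes left 4 of the 7 calls.

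For each of the 8 genes above background on every array, the nearest genes among 12154 others were found by the root mean square distance of their levels over the 8 arrays, each centred on its own mean. Reep1 (distance 0.0482) and Akap12 (0.0533) were nearest to Lifr, Slc39a3 (0.0296) and Pramel12 (0.0302) to Il6st, and Zfp827 (0.0649) and Wdr78 (0.0694) to Osmr. Susd6 (0.0348) and Kidins220 (0.0510) were nearest to Stat3, Adgra3 (0.0184) and Mok (0.0336) to Socs3, and Fas (0.104) and Adam19 (0.106) to Cebpd. Sgsm2 (0.0302) and Clk1 (0.0314) were nearest to Junb, and Bcor (0.0890) and Samd5 (0.0892) to Pim1. No member was among another member's nearest pair. Likeness over 8 arrays of 4 groups is a description.

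Other genes of the pathway were described by list, and their counts are to be read against the called share of all genes. Between W20 and EGFP NPC, 30% of the tested kinases and STATs and 57.1% to 77.8% of the other lists were called, against 55.5% of all genes. At 72 h the lists had 50% to 72.7%, against 52.7%. Over the 72 h they had 72.7% to 100% in W20 cells, against 74.6%, and 42.9% to 88.9% in EGFP cells, against 69.9%. Of 10 ligands 8 were tested. In W20 against EGFP NPC, 5 were higher and 1 lower (median 0.38, against 0.04 for all genes), and at 72 h 2 were higher and 3 lower (median -0.11). Clcf1, a ligand of the CNTF receptor, was 0.61 higher and Ctf2, a cardiotrophin, 0.43 higher in W20 NPC, a call that ended under 8 of 18 other settings. At 72 h Ctf1, cardiotrophin-1, was lower in W20 cells (-0.86). Il6 was above background on both arrays of each 72 h group and on no NPC array, at least 2.77-fold higher at 72 h in W20 cells and at least 2.13-fold in EGFP cells. Osm, the ligand of Osmr, was above background on no array.

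Of 10 other receptor chains 7 were tested. In W20 against EGFP NPC, 2 were higher and 2 lower, and at 72 h 0 were higher and 4 lower. Il6ra, which binds interleukin-6, was higher in W20 NPC (0.48) and lower in W20 cells at 72 h (-0.26). Il11ra1, which binds interleukin-11, was lower with W20 in NPC (-0.43) and at 72 h (-0.48), and Il10rb was lower at 72 h (-0.29). Between NPC and 72 h, 2 were higher and 4 lower in W20 cells, and 1 higher and 2 lower in EGFP cells. Cntfr, which binds CNTF, was at least 2.42-fold higher over the 72 h in W20 cells, and Il27ra at least 1.54-fold with 1 of 2 arrays above background. In EGFP cells Il4ra fell by 0.51 over the same time.

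All 10 kinases and other STATs were tested. In W20 against EGFP NPC, 1 was higher and 2 lower, with Jak3 at -0.88 and Tyk2 at -0.15, a call that ended under 11 of 18 other settings. At 72 h 3 were higher and 2 lower, with Stat5b at 0.58 and Jak2 at 0.29. By 72 h, 4 were higher and 6 lower than in NPC in W20 cells, and 2 higher and 6 lower in EGFP cells. Stat5b, which responds to growth hormone and related cytokines, rose by 1.71 in W20 cells and 1.05 in EGFP cells. Stat4, a factor best known from lymphocytes, was above background in NPC only. At 72 h its fall was at least 2.73-fold in W20 cells and at least 4.10-fold in EGFP cells.

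All 19 inhibitors and adaptors were tested. In W20 against EGFP NPC 6 were higher and 6 lower, and at 72 h 5 were higher and 7 lower. Ptprd, a receptor phosphatase, was lower with W20 in NPC (-2.35) and at 72 h (-1.46), while Socs7 was higher at both (0.81 and 0.84). At 72 h Ptprd was above background on 1 of 2 W20 arrays, and its difference ran from -1.77 to -0.37 over the other settings. Between the stages, 8 were higher and 8 lower at 72 h in W20 cells, and 8 higher and 7 lower in EGFP cells. Socs2, of the same family as Socs3, rose by 2.76 in W20 cells and 2.79 in EGFP cells. Cish, another member of that family, rose by 1.85 in W20 cells and by 1.33 in EGFP cells, and Socs1 fell by 1.45 in W20 cells and fell by 1.09 in EGFP cells. Cish was, like Socs3, lower in W20 NPC (-0.53), and at 72 h its difference was -0.01 (adjusted p = 0.920).

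Of 25 other known STAT3 targets 22 were tested. In W20 against EGFP NPC 9 were higher and 6 lower (median 0.11), and at 72 h 11 were higher and 5 lower (median 0.11). In W20 NPC, Gfap, which builds intermediate filaments in astrocytes, was lower by at least 1.21-fold and Lcn2, a secreted lipocalin, by at least 1.12-fold. Both were above background in EGFP NPC only, and passed the filter through that group alone. Gfap also counts among the 11 higher at 72 h, though it was above background on no array there and has no fold. Vegfa, a vascular growth factor, was 1.74 higher in W20 cells at 72 h. Against NPC, 8 were higher and 8 lower at 72 h in W20 cells, and 6 higher and 12 lower in EGFP cells. Myc is given no direction over the 72 h: its brightest probe differed by 3.71 in W20 cells and 3.54 in EGFP cells, and 1 of its 3 probes was called the opposite way.

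Of 12 genes known as LIF and STAT3 targets in embryonic stem cells 9 were tested. In W20 against EGFP NPC 3 were higher and 4 lower, and at 72 h 4 were higher and 2 lower. Klf4 was higher in W20 NPC (0.94), and so was Klf5 (0.66). Both Klf genes were lower at 72 h than in NPC: Klf4 fell by 1.28 in W20 cells and fell by 0.86 in EGFP cells. Tfcp2l1, a factor that sustains self-renewal downstream of Stat3, was higher in W20 cells at 72 h (1.20), a call that ended under 4 of 17 other settings, and rose over the 72 h by 3.34 in W20 cells and by 2.49 in EGFP cells. Esrrb, an orphan nuclear receptor of the same network, was at 72 h lower than in NPC by at least 4.61-fold in W20 cells, and it fell by 2.61 in EGFP cells. At 72 h against NPC, 3 were higher and 5 lower in each kind of cell. The plot of pathway lists shows the counts of all 6.

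**Figure D4:**
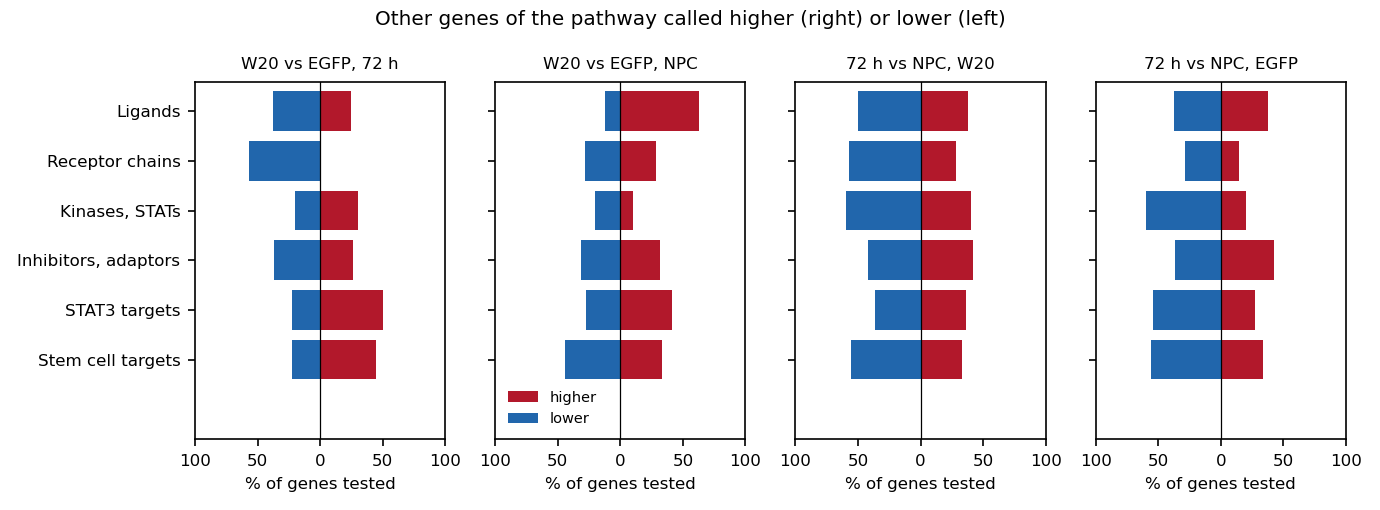
Share of the tested genes of each of 6 pathway lists (rows) called higher (right, red) or lower (left, blue) in 4 comparisons (panels), in percent of the genes tested. No list is called in 1 direction only, except the other receptor chains in W20 against EGFP cells at 72 h.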

How the data were processed

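Total RNA was hybridised with Cy3 to Whole Mouse Genome arrays, per the labels' protocols. Per the file headers, the deposited scanner files hold processed signals, intensity values already background-corrected, which the file headers credit to version 10.7.3.1 of Agilent's Feature Extraction. Control and outlier spots were left out, spots of a probe averaged, and log2 values taken relative to each array's 75th percentile. Accessions were matched to RefSeq (GRCm38.p6), which named 27584 probes and left 13590 without a symbol, not used here. The brightest probe stood for a gene. Differences were tested by limma (version 3.58.1, R version 4.3.3: lmFit, contrasts.fit and eBayes, with 4 residual degrees of freedom), two-sided, and tested on simulated data. The deposited log2 value table of the authors served as an alternative in NPC alone: its NPC columns matched the arrays, while the 72 h replicate 1 columns equalled means of NPC columns. The members and lists were chosen with earlier results of these data known. Pathway genes named are the 2 with the largest called difference per list and comparison, with Osm, Socs1, and the further values of Il6ra, Cish and Klf4 added after their values were seen. Some genes that this rule names are not reported here. Alternatives covered scaling, background correction, filtering, probe averaging, replicate block and leaving out arrays.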

Additional observations from a re-analysis of the deposited data

Results flagged for a closer look

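The effect of W20 differed between the stages, by limma's test of the difference itself, for 7 of the 9 genes. As the W20 minus EGFP difference at 72 h minus that in NPC, it was 1.25 for Cebpd, 1.14 for Icam1, 0.91 for Pim1, 0.55 for Socs3, 0.48 for Lifr, 0.48 for Osmr and 0.45 for Stat3. Icam1 was below background on all 4 W20 arrays, so its value has no interpretable size, and its call ended under 8 of 15 other settings. All 7 are positive, and 13.9% of all genes were called positive. Without Icam1, which passed the filter through its EGFP groups alone, it was 6 of 8. Lifr and Osmr count by their brightest probes, and not all of their other probes were called. The NPC and 72 h arrays lay on different slides, and LIF, Dox and medium differed with them, so their parts cannot be told apart.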

How the results depend on the processing

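Over the alternatives, 654 values of single members kept their direction and side of the threshold, 79 calls ended, 5 were gained and 4 values turned. Those that turned were the W20 minus EGFP difference of Icam1 at 72 h (0.084 with normexp, not called) and the difference between stages of Junb (0.0061 with spike-in scaling, 0.0064 with the mean of its probes, 0.015 without W20 NPC replicate 1; -0.052 to 0.015 over the arrays left out), none called. Of other genes, Il6ra over the 72 h in EGFP cells came to -0.043 with normexp and Esrrb in the difference between stages to 0.26; the cause was not tested. The 7 calls at 72 h came to 1 with spike-in scaling and 4 with normexp, and leaving out an array gave 3 to 7. The 7 calls of the difference came to 4 with spike-in scaling, and leaving out an array gave 5 to 6. Leaving out an array gave 8 to 9 in NPC, 8 to 9 over the 72 h in W20 cells and 6 to 8 in EGFP cells. With spike-in scaling 3259 genes were called in NPC, against 7551, 2974 at 72 h, against 7182, 1460 in the difference, against 4201, and 6524 over the 72 h in EGFP cells, against 9518. The share of calls that were higher was then 37.1% in NPC, against 57.4%, and 36.8% at 72 h, against 53.8%; without the filter it was 64.5% at 72 h. Median scaling gave 2795 calls in the difference.

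Same-numbered arrays correlated by -0.091 to 0.148 in their deviations, so the numbers were not taken as pairs. With the replicate number as a block, the calls at 72 h of Stat3 (adjusted p = 0.0682) and Cebpd (adjusted p = 0.0550) ended, as did those of Icam1 over the 72 h in W20 cells (adjusted p = 0.0530) and in the difference (adjusted p = 0.0626). A slide block could not be fitted, since each slide holds 1 stage. The scanner files used here hold median spot signals, so normexp was run on those, an alternative chosen after seeing the data, as was a fit on 1 slide at a time. The number of arrays and the signal over background limit the precision.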
